A study of Homo sapiens with 16 samples.

Results

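Divergent paired promoters are promoters of neighboring genes that are transcribed away from each other from starts that lie close together. They were taken here as every minus-strand promoter whose transcription start site (TSS) lay 1 to 1000 bp below the TSS of a plus-strand promoter of another gene on the same chromosome, together with that plus-strand promoter, and no measured value entered this choice. Of the 21857 promoters in the series, 2087 were members (9.55%), in 1055 pairs. Of the members, 23 belonged to 2 pairs, and 20 pairs had the same TSSs as another pair under another gene name, which left 1045 distinct pairs of starts. The TSSs of a pair lay 2 to 1000 bp apart, with a median distance of 156 bp and quartiles of 76.5 and 347.5 bp. By distance, 361 pairs were 1 to 100 bp apart, 246 were 100 to 200 bp apart, 137 were 200 to 300 bp apart, 150 were 300 to 500 bp apart and 161 were 500 to 1000 bp apart, with the lower bound left out of every class but the first. The positions match the label, since 86.1% of members and 79.3% of the other promoters started within 50 bp of a GENCODE transcript start on the same strand. Just inside the limit stood CRYAB/HSPB2-C11orf52 at 986 bp, APBA3/MRPL54 at 991 bp and UBQLN4/LAMTOR2 at 1000 bp, and just outside it PRADC1/CCT7 at 1007 bp, BVES/BVES-AS1 at 1018 bp and MCM3AP/YBEY at 1030 bp.

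The fragments came from GM12878, a human B-lymphoblastoid cell line made by transforming B cells with Epstein-Barr virus. Cells had been incubated with heat-killed Salmonella typhimurium (HKST) for 40 or 60 min or were untreated, and their chromatin was digested with micrococcal nuclease (MNase) either lightly (20 U) or heavily (200 U), with 2 replicates of each. HKST presents bacterial surface molecules without a live infection, and a single established line limits these cells as a model of B cells. Each of the 6 tables used pools both replicates, so there is no spread between replicates, and HKST cannot be told apart from unequal digestion of the tubes. The same untreated tables served both time points.

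MNase cuts the DNA between nucleosomes, and promoters that are in use carry a nucleosome-free region (NFR) upstream of the TSS, flanked by the -1 nucleosome upstream and the +1 nucleosome inside the gene. A nucleosome whose fragments are found more after light than after heavy digestion is called MNase-sensitive, and one found more after heavy digestion is called MNase-resistant. At a divergent pair the upstream side of each gene is the upstream side of its partner, so that both genes can share an NFR; such promoters are known to be rich in CpG dinucleotides and poor in TATA boxes, and many serve genes of DNA repair, metabolism and other functions that every cell uses. The -1 nucleosome of such a gene lies next to its partner, or is the +1 nucleosome of its partner.

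To show what lies between the starts, the whole sequence from the base after the minus-strand TSS to the plus-strand TSS is given for 9 pairs, on the plus strand of hg19 (GRCh37), 5′ to 3′. Capitals mark matches to any of the motifs searched on both strands, which are spelled out further on. The first set holds a pair each of core histone genes, whose starts leave room for a nucleosome, and is shown for its CCAAT and TATA matches: HIST1H2BK/HIST1H2AH at chr6:27114638-27114860 and HIST1H2AM/HIST1H2BO at chr6:27860964-27861202, neither overlapping an exon in GENCODE.
HIST1H2BK/HIST1H2AH: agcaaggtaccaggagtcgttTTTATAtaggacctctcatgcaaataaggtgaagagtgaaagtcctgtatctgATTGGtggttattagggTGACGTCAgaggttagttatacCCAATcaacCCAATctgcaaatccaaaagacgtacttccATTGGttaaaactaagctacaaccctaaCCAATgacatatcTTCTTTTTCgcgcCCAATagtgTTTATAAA
HIST1H2AM/HIST1H2BO: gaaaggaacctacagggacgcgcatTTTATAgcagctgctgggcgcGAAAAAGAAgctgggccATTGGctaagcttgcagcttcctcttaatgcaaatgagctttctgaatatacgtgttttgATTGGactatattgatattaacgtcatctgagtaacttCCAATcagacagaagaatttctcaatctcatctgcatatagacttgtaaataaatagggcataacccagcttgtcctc

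The second set holds pairs whose partners have related or well-known functions. TAP1/PSMB9 at chr6:32821749-32821937 pairs a subunit of the transporter that carries peptides into the endoplasmic reticulum with a subunit of the immunoproteasome, both used in antigen presentation; 13 of its bases lie in annotated exons. NPAT/ATM at chr11:108093366-108093558, with no exon base, pairs a coactivator of histone genes with the kinase that signals DNA double-strand breaks. TK1/AFMID at chr17:76183286-76183397, with 29 exon bases, pairs thymidine kinase with kynurenine formamidase.
TAP1/PSMB9: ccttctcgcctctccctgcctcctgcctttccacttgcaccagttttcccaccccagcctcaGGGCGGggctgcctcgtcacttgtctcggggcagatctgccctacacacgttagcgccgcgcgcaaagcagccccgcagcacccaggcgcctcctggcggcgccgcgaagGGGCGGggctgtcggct
NPAT/ATM: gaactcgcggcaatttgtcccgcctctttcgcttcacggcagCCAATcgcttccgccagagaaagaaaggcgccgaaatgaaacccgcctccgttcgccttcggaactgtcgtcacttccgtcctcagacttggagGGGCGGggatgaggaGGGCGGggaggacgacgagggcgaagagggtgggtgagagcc
TK1/AFMID: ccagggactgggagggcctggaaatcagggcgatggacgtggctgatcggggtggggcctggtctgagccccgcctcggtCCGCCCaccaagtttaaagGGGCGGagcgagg

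The third set holds close starts that the results below turn on. SMYD4/RPA1 at chr17:1733176-1733272, with 50 exon bases, had the deepest NFR, and RPA1 is the large subunit of the protein that binds single-stranded DNA. DNAJC27/DNAJC27-AS1 at chr2:25194964-25194980, all 17 bases exonic, holds a match to the BANP motif as searched, between a gene and its antisense-named partner. MRPL46/MRPS11 at chr15:89010634-89010683, with no exon base but within the annotated span of another gene, pairs proteins of the large and the small mitochondrial ribosomal subunit and holds none of the motifs. ADAT2/PEX3 at chr6:143771842-143771917, with no exon base, pairs a subunit of a transfer RNA deaminase with a peroxisome biogenesis factor, changed at both time points, and also holds none of the motifs.
SMYD4/RPA1: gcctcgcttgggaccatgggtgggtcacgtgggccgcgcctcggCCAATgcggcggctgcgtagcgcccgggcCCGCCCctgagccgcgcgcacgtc
DNAJC27/DNAJC27-AS1: gggagTCTCGCGAtgct
MRPL46/MRPS11: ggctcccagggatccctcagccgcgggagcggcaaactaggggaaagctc
ADAT2/PEX3: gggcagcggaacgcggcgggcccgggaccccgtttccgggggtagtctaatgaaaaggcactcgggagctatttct

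Values are fragment centers of fragments of 140 to 200 bp, scaled to depth (rpm, where 1 rpm is 1 fragment in 1000000 of the table). In untreated cells the tables held 9719874 light and 5117307 heavy fragments, at 40 min 9426027 and 3272160, and at 60 min 10080488 and 7038122. The untreated heavy table, as received, ends within a line, so the comparisons used the 16260 promoters complete in all 6 tables. Of these, 1684 were members and 14576 were other promoters, and both partners were complete in 699 pairs. Chromosome X was covered for 173 of its 911 promoters and chromosome Y was not analysed here. The -1 window of a member held a median of 8, 9 and 9.5 light fragments and 3, 1 and 3 heavy fragments in untreated, 40 min and 60 min cells, so a single member's value is imprecise and results are given over members or over windows that cover a whole pair, where the medians were 77, 83 and 85 light and 36, 21 and 43 heavy fragments. Partners share their fragments: in 107 pairs whose starts differed by whole bins, all 95809 shared positions held the same value within 0.001 rpm. Of the 1684 complete members, 1389 were in complete pairs. Counts and medians over members therefore take in fragments that close partners share more than once, and members are not independent. Results over pair windows are given as well.

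The NFR of divergent pairs was deeper at the median than that of other promoters. Its depth was taken as the log2 ratio of the total signal from -100 to 50 bp of the TSS over that of the whole 2000 bp. The median depth of members was -2.72 before HKST, -2.67 at 40 min and -2.71 at 60 min, against -1.67, -1.66 and -1.73 at the other promoters. In rpm, the median signal of the NFR in untreated cells was 0.206 at members and 0.534 at the other promoters, while over the whole 2000 bp it was 2.14 and 2.26. The quartiles of members, -3.57 and -1.73, overlapped those of the other promoters, -3.26 and -0.22. Promoters with a neighbor on the same strand within 1000 bp, called tandem, had a median of -0.68 (n = 149), and promoters whose starts face each other within 1000 bp, called overlapping, had -2.103 (n = 466). In the average profile of untreated cells, members reached 3.01 rpm at the +1 nucleosome, 145 bp inside the gene, and 2.01 rpm at -215 bp, with a lowest value of 0.467 rpm at -35 bp. The other promoters reached 2.27 rpm at 155 bp and 2.36 rpm at -195 bp, and their lowest value was 1.25 rpm at -75 bp.

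Part of the contrast in NFR depth moved with base composition. The 200 bp upstream of the TSS had a median GC content of 66% in members and 60.5% in the other promoters. Promoters were divided at values of GC content that split the members evenly into 5 ranges. The median depth of members and of the other promoters was -2.03 and -0.34 at 29 to 58.5% GC, -2.50 and -1.19 at 58.5 to 63.5%, -2.56 and -1.97 at 63.5 to 68.5%, -2.98 and -2.78 at 68.5 to 74%, and -3.51 and -3.64 at 74 to 91.5%. The gap between members and other promoters was thus widest where GC content was lowest, and at the highest GC content the order turned round. The deepest NFRs among pairs with enough fragments were those of SMYD4/RPA1, at -5.22 with starts 97 bp apart, and of WFDC3/DNTTIP1, at -4.98 with starts 28 bp apart; DNTTIP1 is a component of a histone deacetylase complex. At the other end, PIH1D2/C11orf57 had a depth of 0.97 and AKNAD1/SPATA42 of 0.71, so that more signal lay over these starts than around them.

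**Figure D1:**
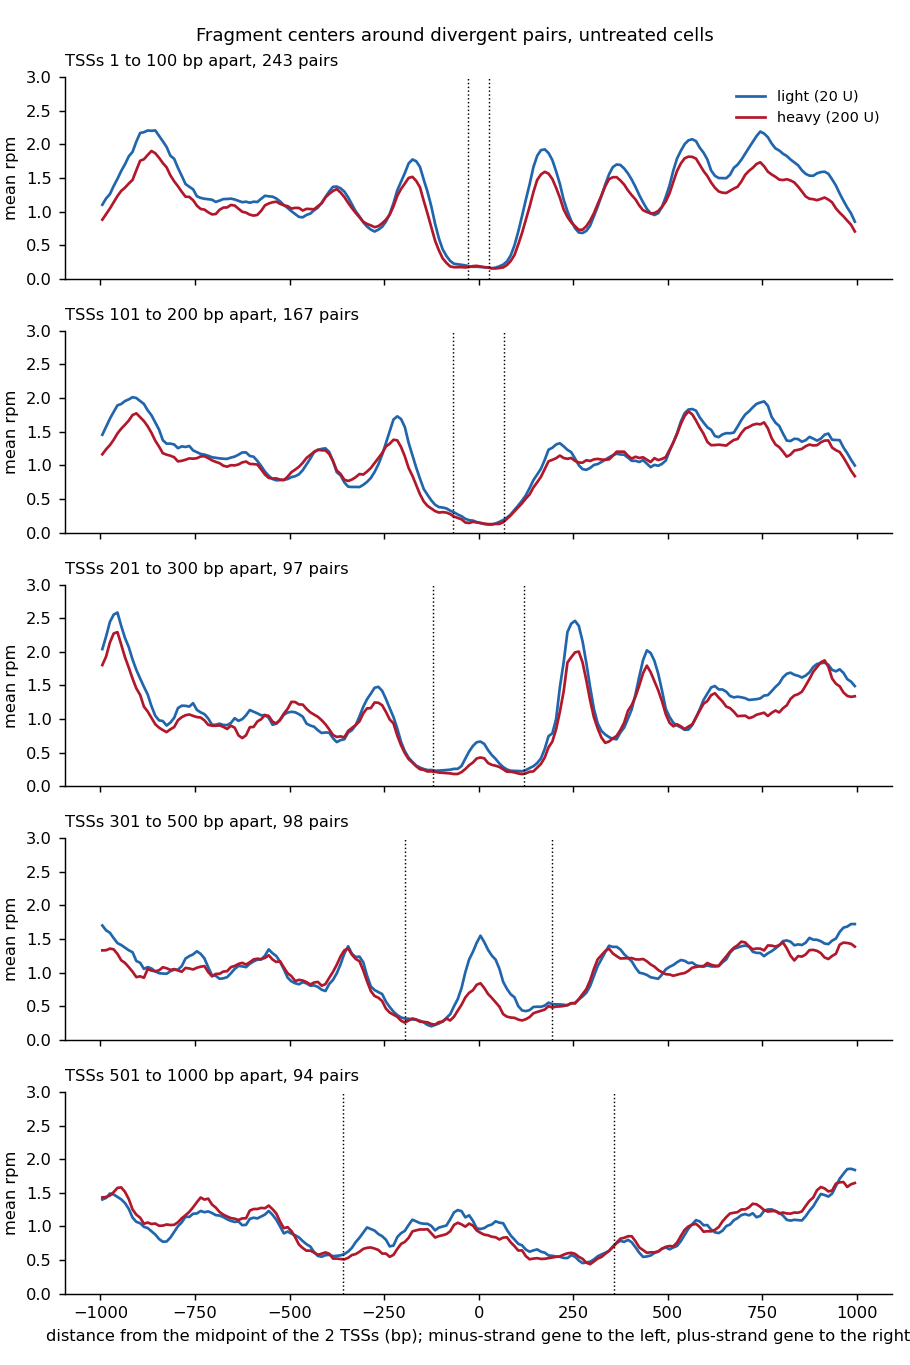
Mean rpm of light (20 U) and heavy (200 U) fragment centers in untreated cells against the distance from the midpoint of the pair's TSSs in bp, in 5 distance classes, with the minus-strand gene on the left. The peaks on either side move apart with the starts, from 350 bp in pairs 1 to 100 bp apart to 700 bp in pairs 300 to 500 bp apart, and a peak of mainly light fragments stands in the middle of the 300 to 500 bp class.

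The flanking nucleosomes followed the starts. In pairs 1 to 100 bp apart (243 pairs, median distance 54 bp), the average profile of untreated cells peaked 148 bp inside the minus-strand gene, at 3.24 rpm, and 148 bp inside the plus-strand gene, at 3.48 rpm. These peaks lay 350 bp apart, with a single trough between them that fell to 0.330 rpm. Pairs 100 to 200 bp apart (167 pairs) had peaks 430 bp apart, again 148 bp inside either gene, and a lowest value of 0.254 rpm. The span with a signal under 0.5 of the regional mean was 210 bp in the closest class and 270 bp in the next. Pairs 200 to 300 bp apart (97 pairs) had peaks 145 and 135 bp inside their genes and 520 bp from each other, and pairs 300 to 500 bp apart (98 pairs) had peaks 150 and 160 bp inside and 700 bp from each other. The +1 nucleosome thus stayed 135 to 160 bp inside its own gene in these classes, and the distance between them grew with the distance between the starts. In pairs 500 to 1000 bp apart (94 pairs) the flanking peaks were at 197 and 217 bp and no single trough joined the genes. At 40 and 60 min the peaks of the classes up to 500 bp kept these positions, apart from pairs 100 to 200 bp apart at 40 min, whose peaks were 158 bp inside and 450 bp from each other.

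Where the starts left room, MNase-sensitive fragments of nucleosome size lay between them. In the 140 bp around the midpoint, pairs 300 to 500 bp apart held 1.81 rpm before HKST, 1.93 rpm at 40 min and 2.01 rpm at 60 min, from 2522 light and 730 heavy fragments, 2626 and 488, and 3055 and 1006. The log2 ratio of the summed light over the summed heavy signal was 0.87, 0.89 and 1.09 there. The other promoters, read at the same distance from their TSS (-260 to -120 bp), held 2.08, 2.07 and 2.05 rpm with log2 ratios of 0.08, 0.14 and 0.17. The middle of these pairs thus had a similar number of fragments and a larger share of them after light digestion. In pairs 200 to 300 bp apart the middle held less, 0.808, 0.824 and 0.832 rpm, with log2 ratios of 0.58, 0.92 and 1.18, from 1009 light and 355 heavy, 1086 and 199, and 1249 and 382 fragments. The other promoters at -190 to -50 bp held 1.63, 1.61 and 1.58 rpm with log2 ratios of 0.00, 0.04 and 0.06. In pairs 500 to 1000 bp apart, the middle had log2 ratios of 0.19, 0.30 and 0.32, against 0.06, 0.09 and 0.10 at the other promoters at -430 to -290 bp. Per pair, the median of the middle over the 288 complete pairs with starts over 200 bp apart and a value there was 0.28, 0.50 and 0.61, with quartiles in untreated cells of -0.09 and 0.94, so the pairs varied widely. Single pairs show this: PPAT/PAICS, which joins enzymes of purine synthesis at 466 bp, had 52 light and 9 heavy fragments in its middle in untreated cells, whereas GART/SON at 885 bp, a purine synthesis enzyme and a splicing cofactor, had 4 and 6.

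**Figure D2:**
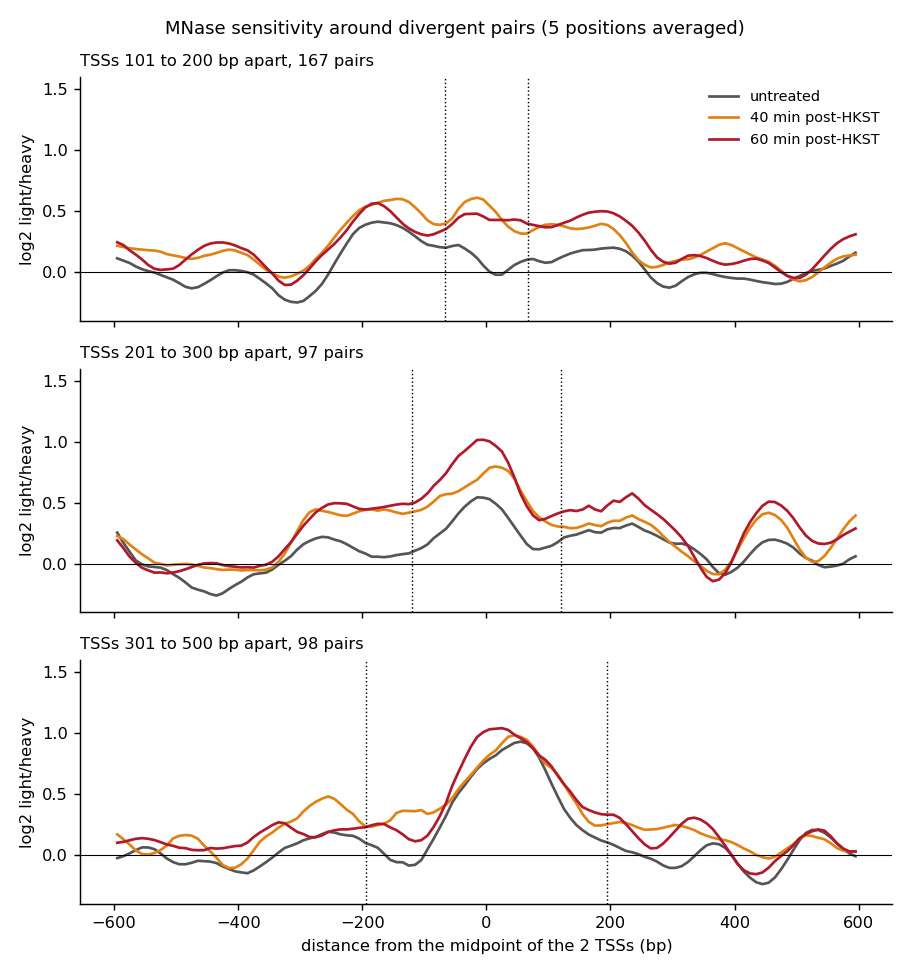
Log2 ratio of light over heavy signal, averaged over 5 positions, against the distance from the midpoint of the pair's TSSs in bp. Values are for untreated cells, 40 min and 60 min post-HKST, in the distance classes between the closest and the widest. In the middle of pairs 200 to 300 bp apart the summed signal gave 0.58, 0.92 and 1.18 in the 3 conditions.

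After HKST the -1 side of divergent pairs was more MNase-sensitive than that of other promoters. Before HKST the difference depended on depth and on whether medians or summed signal were compared. Sensitivity was the log2 ratio light/heavy of the mean signal from -200 to 0 bp. A value of 0 meant an equal share of both tables, or no fragment in either. The median over 1684 members was 0.16 before HKST, 0.42 at 40 min and 0.48 at 60 min, with quartiles of -0.17 and 0.69 in untreated cells, 0.00 and 1.07 at 40 min and 0.00 and 1.11 at 60 min. The median over the other promoters was 0.01, 0.07 and 0.05. With all tables thinned to the depth of the shallowest, the median of members was 0 before HKST, 0.36 at 40 min and 0.44 at 60 min, and its difference from the other promoters was 0, 0.36 and 0.44. A value above 1 was reached by 247 members (14.7%) before HKST, 471 (28.0%) at 40 min and 497 (29.5%) at 60 min, while among all promoters with a value 11.9%, 17.8% and 18.8% reached it. Summed over promoters, the log2 ratio was 0.32, 0.52 and 0.63 in members and -0.04, 0.00 and 0.00 in the other promoters. The contrast was not limited to the -1 side: over the whole 2 kb the median of members was 0.16, 0.24 and 0.30, against 0.05, 0.03 and 0.03 at the other promoters, and 66.0% of members were higher at 40 min than in untreated cells and 72.3% at 60 min, against 51.1% and 48.1%. Nor was it particular to members. Over the whole 2 kb tandem promoters had medians of 0.21, 0.21 and 0.34, and overlapping promoters 0.15, 0.21 and 0.27. Of overlapping promoters 64.6% were higher at 40 min and 65.0% at 60 min, and of tandem promoters 52.3% and 53.7%. In the -1 window, against tandem promoters alone, whose median was 0.23 in untreated cells, the difference was -0.07 before HKST. Members were above them there at 40 and 60 min, when tandem promoters had 0.14 and 0.20. With starts less than 200 bp apart the window also holds the beginning of the partner gene; members 200 to 300 bp apart had medians of 0.31, 0.62 and 0.87, and members 300 to 500 bp apart 0.35, 0.65 and 0.62.

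The change after HKST depended on how it was summarized. Over members, the median difference from untreated cells was 0.18 at 40 min and 0.22 at 60 min, against 0.03 and 0.00 at the other promoters. At 40 min 1031 members were higher (61.2%) and 547 lower (32.5%), against 51.9% and 41.9% of the other promoters, and at 60 min 1033 were higher (61.3%) and 558 lower (33.1%), against 50.2% and 43.8%. The change of the summed signal was 0.20 and 0.31 in members and 0.03 and 0.04 in the other promoters. Heavy fragments were missing altogether from the -1 window of 22.6% of members before HKST, 36.3% at 40 min and 26.2% at 60 min. At the other promoters they were missing from 16.1%, 21.7% and 16.4%. In both groups the share was highest at 40 min and higher at 60 min than before HKST, by less at the other promoters. The heavy table of 60 min was deeper than the untreated one. With all tables thinned to the depth of the shallowest, the median change of members was 0.0097 at 40 min and 0.092 at 60 min, so the size of this median change depends on the depth of the tables. Overlapping promoters, which are not members, also had a summed change of 0.19 at 40 min and 0.18 at 60 min, and tandem promoters had 0.01 and 0.07. A change of this kind was thus also measured where starts face each other.

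Base composition moved with the change as well. At 29 to 58.5% GC the median change of members was 0.37 at 40 min and 0.45 at 60 min, against 0.00 and -0.02 at the other promoters. At 68.5 to 74% GC, members had 0.16 and 0.23 and the other promoters 0.15 and 0.14. At 74 to 91.5% GC all medians were 0, where windows hold few fragments. The part of GC content and of depth in these changes was not tested.

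**Figure D3:**
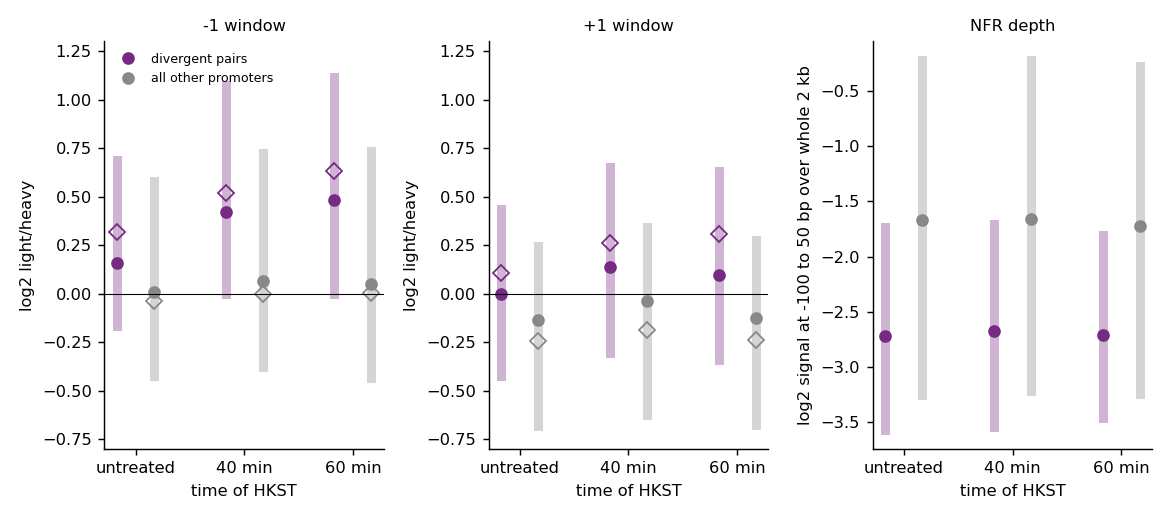
Sensitivity of the -1 window and of the +1 window (log2 light/heavy) and NFR depth (log2) by time of HKST, for divergent pairs and for all other promoters. Circles are medians and bars run between the quartiles. Open diamonds, shown for the sensitivity of both windows, are ratios of summed signal. Members lie above the other promoters in the -1 window at each time (0.16, 0.42 and 0.48 against 0.01, 0.07 and 0.05), with bars that overlap.

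The +1 nucleosomes of members moved in the same way by less. Their window from 50 to 250 bp inside the gene had a median sensitivity of 0.00 before HKST, 0.14 at 40 min and 0.10 at 60 min, against -0.14, -0.04 and -0.12 at the other promoters. The summed change was 0.15 at 40 min and 0.20 at 60 min in members, and 0.06 and 0.00 in the other promoters. Overlapping promoters were close to members, with medians of 0.00, 0.14 and 0.08 and a summed change of 0.18 at both times. The summed change of tandem promoters was 0.07 and 0.05. The +1 sensitivities of partners were weakly correlated. Counting error in windows with few fragments can lower such a correlation, and its part was not tested. Over 699 pairs, Pearson's r between the partners' +1 sensitivity was 0.17 before HKST (Spearman's rho 0.15), 0.14 at 40 min (0.16) and 0.20 at 60 min (0.21), a description across pairs that share libraries and base composition.

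Many pairs join a coding gene with a gene whose name marks it as non-coding or unnamed (LOC, LINC, antisense and similar symbols). There were 112 such pairs among the complete ones, 586 with both names coding and 1 with both non-coding. Within the 112 pairs, the +1 window of the non-coding-named side held a median of 1.65 rpm in untreated cells and that of its coding partner 0.852 rpm, and the non-coding-named side was the higher one in 75 pairs and the lower one in 37. The same held at 40 min (1.65 and 0.781 rpm) and at 60 min (1.51 and 0.659 rpm). The NFR was shallower on the non-coding-named side, -2.42 against -2.83 in untreated cells, and its +1 sensitivity was 0.07 against -0.12. As whole pairs, those with a non-coding name had a median sensitivity of -0.10 before HKST, 0.11 at 40 min and 0.14 at 60 min, below the 0.16, 0.35 and 0.38 of pairs with both names coding. Their median changes were 0.23 at 40 min, with 79 pairs higher and 33 lower, and 0.21 at 60 min, with 75 and 37, against 0.15, with 376 and 209, and 0.19, with 409 and 177, in pairs with both names coding.

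Over whole pairs, sensitivity was higher after HKST at most of them. The pair window ran from 250 bp inside one gene to 250 bp inside the other. Its sensitivity over 699 pairs had a median of 0.12 before HKST, 0.32 at 40 min and 0.34 at 60 min. Pairs changed by a median of 0.17 at 40 min, with 456 pairs higher and 242 lower, and 0.20 at 60 min, with 485 higher and 214 lower. Of the 369 pairs with at least 20 light and 20 heavy fragments in every table, 59.6% were higher at 40 min and 67.2% at 60 min, against 51.1% and 46.0% of the 8488 other promoters with as many. With all tables thinned to the depth of the shallowest, the median changes of the pair window were 0.17 and 0.20. Between the 60 and 40 min tables, which do not need the untreated ones and so cover all 1055 pairs, the median difference was 0, with 527 pairs higher and 525 lower at 60 min. The summed change in the 5 distance classes, from the closest to the widest, was 0.16, 0.22, 0.15, 0.16 and 0.13 at 40 min and 0.22, 0.25, 0.26, 0.21 and 0.14 at 60 min, so the class of 100 to 200 bp was highest at 40 min and the widest class lowest at both times. Between the TSSs alone, in 457 pairs with starts at least 100 bp apart, medians were 0.24, 0.53 and 0.56.

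Few single pairs could be told apart from counting error. For the 369 pairs with at least 20 light and 20 heavy fragments in every table, the change of the light over heavy fragment ratio was given an exact conditional 95% interval, which covers counting error only, since reads made by PCR without molecular identifiers are not independent molecules. At 40 min the interval lay above 0 in 26 pairs (7.05%) and below 0 in 10 (2.71%), where 3.89% and 3.96% of 8488 other promoters, read from -400 to 250 bp, did so. At 60 min it lay above 0 in 39 pairs (10.6%) and below 0 in 11 (2.98%), against 4.91% and 7.29% of the other promoters. An estimate past 2-fold, whatever its interval, was higher in 5 pairs (1.36%) and lower in 2 (0.542%) at 40 min, against 1.06% and 1.24% of the other promoters, and higher in 8 pairs (2.17%) and lower in 1 (0.271%) at 60 min, against 1.26% and 0.742%. The shares past 2-fold at 40 min were thus near the background. By the intervals, calls above 0 outnumbered those below 0 in pairs at both times, whereas they did not in the other promoters; past 2-fold, rises outnumbered falls in both groups at 60 min. The median estimate was 0.11 at 40 min and 0.20 at 60 min over pairs and 0.01 and -0.05 over the other promoters.

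The -1 window alone gave too few fragments for most members. Only 61 members were among the 1768 promoters with at least 20 light and 20 heavy fragments there in every table. Of the 61, at 40 min none rose past 2-fold (1.02% of the 1768 did), 3 fell past it (3.56%), 1 had an interval above 0 (1.98%) and 3 had one below 0 (4.24%). At 60 min 1 rose past 2-fold (1.3%), none fell past it (3.28%), 1 had an interval above 0 (1.87%) and 2 had one below 0 (6.9%). With 61 members, 1 promoter is 1.64%, so these counts are too small to set against the background, and a member reaches this minimum only where its -1 window is well filled, which most divergent promoters lack.

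Among pairs with enough fragments, the largest rise at 40 min was at HIST1H2AM/HIST1H2BO, a pair of core histone genes printed above. It had 121 light and 20 heavy fragments at 40 min and 112 and 52 at 60 min, against 88 and 56 in untreated cells. At 40 min the change of 1.34 had a 95% interval of 0.46 to 2.26, and at 60 min that of 0.86 had 0.15 to 1.58. The changes take the depth of each table into account, which the raw numbers do not. ADAT2/PEX3 had 87 light and 22 heavy fragments at 40 min and 98 and 52 at 60 min, against 76 and 65 in untreated cells, a change of 1.16 (0.28 to 2.06) and 1.10 (0.38 to 1.82). TM2D2/ADAM9, whose plus-strand gene encodes a membrane metalloprotease, changed by 1.12 at 40 min (0.43 to 1.83) and 0.64 at 60 min (0.04 to 1.25). NDUFB11/RBM10, a subunit of respiratory complex I and an RNA-binding splicing regulator with starts 7 bp apart, changed by 1.11 at 40 min (0.16 to 2.07), and its interval at 60 min included 0 (-0.30 to 1.37).

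At 60 min the largest rises were at ALDH9A1/LOC440700, FAM173B/CCT5, HNRNPK/RMI1 and BRD8/KIF20A. ALDH9A1/LOC440700, with an aldehyde dehydrogenase gene, had 116 light and 35 heavy fragments at 60 min, against 69 and 38 in untreated cells, a change of 1.28 (0.43 to 2.12). FAM173B/CCT5, with a subunit of the cytosolic chaperonin, had 152 and 29 at 60 min, against 110 and 38, a change of 1.26 (0.43 to 2.103). HNRNPK/RMI1, an RNA-binding protein and a member of the complex that resolves recombination intermediates, had 229 and 64, against 155 and 77, a change of 1.24 (0.65 to 1.83). BRD8/KIF20A, a bromodomain protein of a histone acetyltransferase complex and a mitotic kinesin, had 185 and 46, against 129 and 57, a change of 1.24 (0.55 to 1.92). At 40 min the intervals of these 4 pairs included 0, with estimates between 0.45 at FAM173B/CCT5 and 0.66 at ALDH9A1/LOC440700.

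Falls were fewer. FBXL13/ARMC10, with an F-box gene on the minus strand and starts 312 bp apart, fell at both times: it had 150 light and 47 heavy fragments at 40 min and 167 and 111 at 60 min, against 177 and 44 in untreated cells, a change of -0.93 (-1.65 to -0.22) and -1.01 (-1.64 to -0.40). HIST3H2A/HIST3H2BB, another histone pair, had 65 and 37 fragments at 40 min, against 118 and 43 in untreated cells, a change of -1.24 (-2.06 to -0.42), and at 60 min its interval included 0 (-1.30 to 0.13). AIDA/BROX fell by 1.00 (-1.95 to -0.07) and APBA3/MRPL54, with a mitochondrial ribosomal protein, by 0.85 (-1.50 to -0.21) at 40 min, and neither interval excluded 0 at 60 min. At 60 min TLX1NB/TLX1, next to a homeobox gene, had a sensitivity of -0.92, against -0.04 in untreated cells, a change of -0.94 by its fragments (-1.41 to -0.46). DCDC1/DNAJC24 fell by 0.88 (-1.71 to -0.08), and TEX26-AS1/TEX26, a testis-expressed gene and its antisense-named partner, by 0.73 (-1.30 to -0.15). These genes were chosen by the size of their change, so their values describe the extremes and were not tested again.

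**Figure D4:**
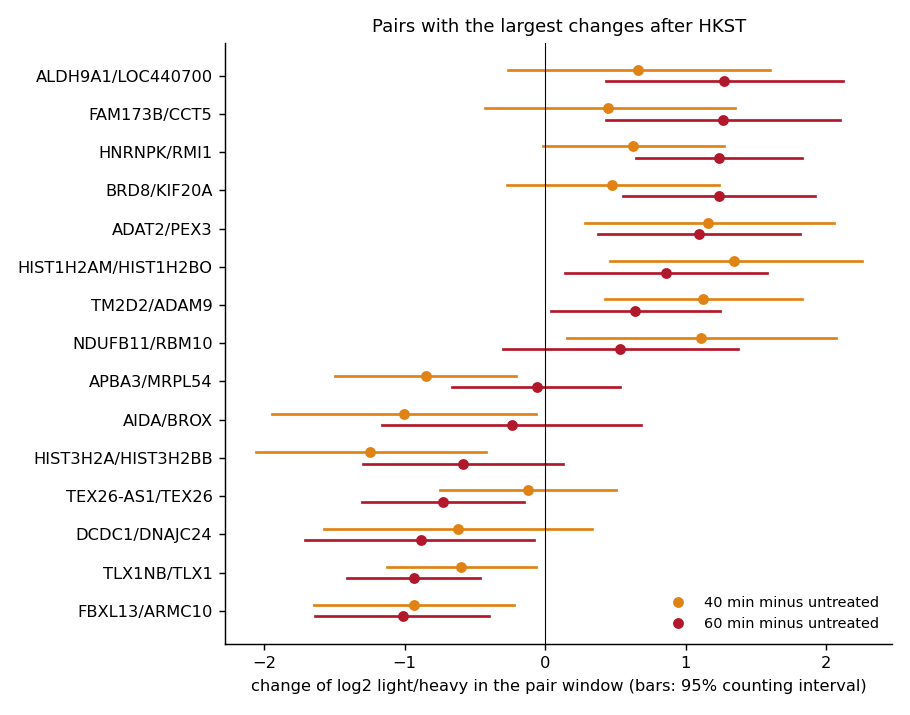
Change of log2 light/heavy in the pair window, 40 min minus untreated and 60 min minus untreated, for the pairs with the largest rises and falls; points are estimates from fragment numbers and bars are exact 95% counting intervals. HIST1H2AM/HIST1H2BO and ADAT2/PEX3 lie above 0 and FBXL13/ARMC10 below 0 at both times.

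In untreated cells the most sensitive pairs with enough fragments were PPP1R10/MRPS18B, at 1.55 with 203 light and 31 heavy fragments, and DCDC1/DNAJC24, at 1.42 with 136 and 24. PPP1R10 encodes a nuclear regulator of protein phosphatase 1 and MRPS18B a mitochondrial ribosomal protein. PPP1R10/MRPS18B stayed at 1.20 at 40 min and 1.65 at 60 min, whereas DCDC1/DNAJC24 was at 0.85 and 0.64. The most resistant pairs were LOC729506/LOC100505738, at -1.53 with 60 light and 103 heavy fragments, and TRIM50/FKBP6, at -1.36 with 86 and 128; both had more signal over their starts than around them, with NFR depths of 0.64 and 0.34. At 40 and 60 min they remained below 0, at -1.08 and -1.51 for the first pair and -1.59 and -1.43 for TRIM50/FKBP6.

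The sequence upstream of divergent promoters differed from that of other promoters in most of the motifs searched. Motifs were sought on both strands from -200 to 0 bp of the TSS, no motif contained another, and a match is a description of letters and not of binding. TATAAA, the TATA box, was found in 3.31% of members and 8.40% of the other promoters (7.91% of all). CCAAT, bound by NF-Y, was found in 33.3% and 27.9% (28.4% of all), and GGGCGG, the GC box bound by Sp1, in 64.5% and 44.1% (46.0% of all). CCGGAAG, bound by factors of the ETS family, was found in 19.6% of members and 6.63% of the other promoters (7.86% of all). GCATGCGC, part of the NRF1 site, was found in 5.27% and 2.19% (2.48% of all). AAGATGGC, bound by YY1, was found in 3.498% and 0.895% (1.14% of all), TCGCGAGA, bound by BANP, in 2.92% and 0.905% (1.10% of all), and TGACGTCA, the cyclic AMP response element (CRE), in 3.21% and 1.54% (1.70% of all). Of the motifs tied to the response to bacterial products, GGGANTTCC, for NF-kB, was found in 1.68% and 1.24% (1.29% of all) and GAAANNGAA, an interferon response element, in 4.12% and 4.84% (4.77% of all). The median ratio of observed to expected CpG was 0.875 in members and 0.644 in the other promoters.

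Most of these contrasts stood between promoters of like GC content. In promoters of 58 to 74% GC (1265 members and 8090 others), the ETS motif was in 23.5% and 10.0%, the YY1 motif in 4.19% and 0.927%, the BANP motif in 3.48% and 1.40% and the NRF1 motif in 6.32% and 3.52%. CCAAT was in 34.3% and 28.4%, the NF-kB motif in 2.29% and 1.57% and the interferon response element in 3.16% and 2.79%. The GC box, at 66.6% and 60.1%, and the TATA box, at 1.90% and 2.89%, were closer than over all promoters. Among members, the ETS motif was in 27.4% of promoters with a partner 1 to 100 bp away, 21.9% at 100 to 200 bp, 16.2% at 200 to 300 bp, 10.7% at 300 to 500 bp and 9.66% at 500 to 1000 bp, whereas CCAAT was in 22.7%, 43.9%, 44.9%, 35.5% and 29.6%. The ETS share thus fell with distance and the CCAAT share was highest at 100 to 300 bp. Windows of close partners share part of their sequence, so these shares are not of independent promoters.

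Members with and without the ETS motif had closer medians than other promoters with and without it. The 338 complete members with the motif had a median NFR depth of -2.80 in untreated cells and a -1 sensitivity of 0.16, 0.47 and 0.54 in the order of time, and the 1346 members without it had -2.68 and 0.16, 0.42 and 0.47. The 1093 other promoters with the motif had -2.65 and 0.24, 0.47 and 0.49, and the 13483 without it had -1.54 and 0.00, 0.04 and 0.02. GC content moved with this contrast, with medians of 65.25% and 66% in members with and without the motif and 65% and 61.5% in the other promoters, and its part was not tested.

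**Figure D5:**
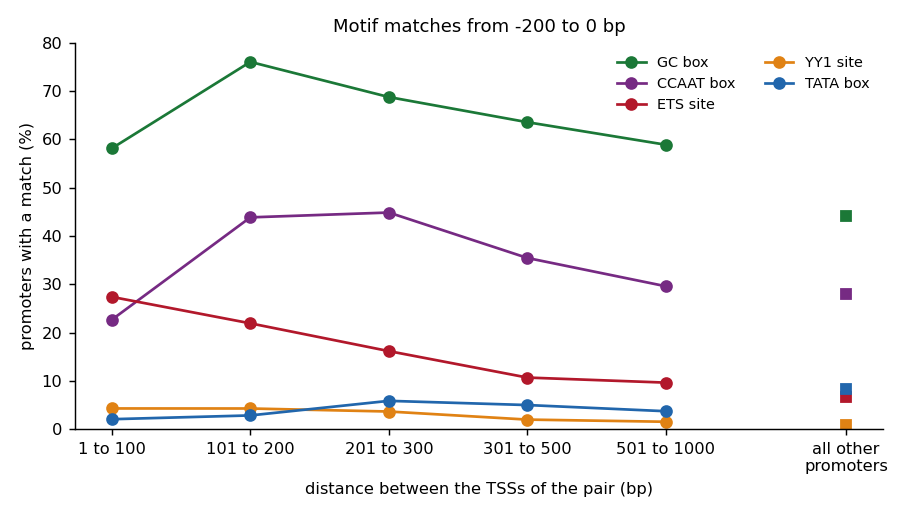
Share of member promoters (%) with a match to each motif from -200 to 0 bp of the TSS, against the distance between the TSSs of the pair in bp. The ETS motif falls from 27.4% in the closest class to 9.66% in the widest, and CCAAT peaks at 44.9% in pairs 200 to 300 bp apart.

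Core histone genes supplied more pairs with both partners in 1 list than any other list did. In 13 complete pairs both genes encode core histones, with starts 223 to 346 bp apart, and 11 of them lie in the histone clusters of chromosome 6; HIST1H3D/HIST1H2BF and HIST1H2AD/HIST1H2BF have the same starts and values, which leaves 12 distinct pairs. Between the starts, CCAAT was present in 13 of 13 pairs and TATAAA in 8 of 13, but GGGCGG in 1 of 13. Of the 84 other pairs at the same distances, CCAAT was present in 35, TATAAA in 3 and GGGCGG in 67, so TATA matches were more common and GC box matches rarer in the histone pairs. HIST1H2BK/HIST1H2AH, printed above, holds 6 CCAAT matches, 3 TATA matches, 1 CRE and 1 GAAANNGAA match in 223 bp. GAAANNGAA was present in 7 of 13 histone pairs and 6 of 84 others. The NFR of histone pairs was shallower than that of all pairs, with a median depth of -1.47 against -2.58 in untreated cells. The middle 140 bp of these pairs was sensitive, with a median of 1.17 before HKST (lowest -0.38, highest 2.88), 0.92 at 40 min (-1.13 to 3.08) and 1.26 at 60 min (-0.35 to 2.55), and exceeded 1 in 8, 6 and 10 of the 13. Fragments there are few: HIST1H2BK/HIST1H2AH had 6 light and 1 heavy fragment in untreated cells. The histone pairs did not move together after HKST, with 8 of 13 higher at 40 min (median change 0.15, from -1.10 to 1.16) and 8 of 13 at 60 min (0.11, from -0.52 to 0.99), and they held both the largest rise and the largest fall at 40 min. Histone genes resemble each other, and the authors kept only reads that aligned uniquely.

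Pairs described in textbooks and reviews as bidirectional were mostly thinly covered. Of 24 such pairs listed, 15 were among the pairs, 13 were complete and 4 had enough fragments: TK1/AFMID, GART/SON, PPAT/PAICS and TAP1/PSMB9. TK1/AFMID had a sensitivity of 0.54 before HKST, 0.35 at 40 min and 0.72 at 60 min, and GART/SON had 0.78, 0.97 and 0.94. PPAT/PAICS had 0.40, 0.06 and 0.55. All of their intervals for the change included 0. NPAT/ATM, just under the minimum with 84 light and 11 heavy fragments at 40 min, 81 and 40 at 60 min, and 68 and 26 in untreated cells, had changes of 0.95 (-0.25 to 2.21) and 0.04 (-0.88 to 0.94). PRKDC/MCM4, the catalytic subunit of the DNA-dependent kinase and a subunit of the replicative helicase 19 bp apart, had 35 light and 15 heavy fragments in untreated cells and changes of 0.28 and 0.32 with intervals that included 0. NME7/BLZF1 stood high throughout, at 1.18, 1.11 and 2.09, with 95, 82 and 124 light and 19, 11 and 15 heavy fragments. COL4A1/COL4A2, the chains of basement membrane collagen, had at most 4 fragments in any table, SURF1/SURF2 at most 8 and TRMT2A/RANBP1 at most 6, so no change at these was detectable at this depth. The mitochondrial ribosomal pair MRPL46/MRPS11 had sensitivities of 0.43, 0.60 and 0.50, and DNAJC27/DNAJC27-AS1 had 0.33, 0.39 and 0.74. CTDNEP1/ELP5, a nuclear envelope phosphatase and a subunit of the Elongator complex, had 0.35, 0.59 and 0.76, and NTHL1/TSC2, a DNA glycosylase and a tumor suppressor, had only 7 light and 16 heavy fragments in untreated cells.

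Of the promoters of listed interferon and immune genes in the series, 3 of 74 (4.05%) were members, and of those of NF-kB and Toll-like receptor genes 4 of 44 (9.09%), beside 9.55% of all promoters. TAP1/PSMB9 was the single complete pair with an interferon or immune gene. It had 143 light and 30 heavy fragments at 40 min and 158 and 59 at 60 min, against 173 and 61 in untreated cells, and its sensitivity was 0.53, 0.67 and 0.81 in the order of time. Its changes of 0.15 (-0.59 to 0.91) and 0.32 (-0.31 to 0.96) did not exceed counting error. The NF-kB and Toll-like receptor genes met 4 complete pairs, named here because they are so few. PUS7L/IRAK4, with a kinase of Toll-like receptor signaling, changed by 0.32 (-0.54 to 1.21) at 40 min and 0.56 (-0.16 to 1.29) at 60 min. SIRT2/NFKBIB, with an inhibitor of NF-kB, changed by 0.16 and 0.62, and FLJ16341/REL, with an NF-kB subunit, by 0.46 and 0.24, with intervals that included 0. ATP6V1G2/NFKBIL1 had 353 light and 68 heavy fragments at 40 min and 491 and 140 at 60 min, against 416 and 127 in untreated cells, and its change of 0.51 at 60 min had an interval above 0 (0.10 to 0.91), whereas at 40 min it did not (-0.42 to 0.56). All 4 estimates were above 0 at both times, with median sensitivity changes of 0.20 and 0.47 beside 0.17 and 0.20 over all 699 pairs. Most of the 699 were higher too, 456 against 242 lower at 40 min and 485 against 214 at 60 min. With 4 pairs, 3 of them with enough fragments, the count is too small to set against that background.

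The other lists of functions are set beside the median changes of all pairs, 0.17 at 40 min and 0.20 at 60 min. Of all 699 pairs, 456 were higher and 242 lower at 40 min, and 485 and 214 at 60 min. In the 27 pairs with a gene of DNA repair or replication, 19 were higher and 8 lower at 40 min and 20 and 7 at 60 min, with median changes of 0.22 and 0.20. Of the 14 with enough fragments, 1 had an interval above 0 at 40 min and none at 60 min. That interval belonged to RAD1/BRIX1, a checkpoint clamp subunit and a ribosome biogenesis factor, which changed by 0.85 (0.03 to 1.69) at 40 min and by -0.02 at 60 min. The 21 pairs of oxidative phosphorylation had median changes of 0.27 and 0.27, the 20 mitochondrial ribosomal pairs 0.19 and 0.13, the 16 pairs of cell division 0.46 and 0.22, and the 12 pairs with a splicing gene 0.57 and 0.27. A list drawn by gene symbol for RNA polymerase II, its initiation factors and Mediator met 13 pairs, among them TAF1D/C11orf54, with an initiation factor of RNA polymerase I, and TAF5L/URB2, with a subunit of a histone acetyltransferase complex. Of these 13 pairs, 11 were higher and 2 lower at either time, with median changes of 0.28 and 0.43. The intervals above 0 at 60 min were those of MED20/BYSL, with a Mediator subunit and a change of 0.83 (0.16 to 1.49), and of HPS5/GTF2H1, with a subunit of the initiation factor TFIIH and a change of 0.74 (0.11 to 1.37). ZBTB4/POLR2A, with the largest subunit of RNA polymerase II, had 126 light and 6 heavy fragments at 40 min and 183 and 32 at 60 min, against 141 and 35 in untreated cells, and did not reach the minimum. The 13 pairs with ubiquitin conjugation or F-box genes had median changes of -0.15 and -0.21, with 5 higher and 8 lower at 40 min and 6 and 7 at 60 min. Of the 9 with enough fragments, the interval lay above 0 in none at 40 min and 1 at 60 min, and below 0 in 1 and 2, where over all 369 pairs 7.05% and 10.6% lay above 0 and 2.71% and 2.98% below it. The 21 zinc finger pairs had 0.19 and 0.03, and the 6 of them with a zinc finger name on both sides ran in untreated cells from ZSCAN30/ZNF271, at 0.77, 0.78 and 0.75 in the order of time, to ZNF667/ZNF667-AS1, at -1.08, -0.88 and -1.46. HSPA1L/HSPA1A, which joins heat shock genes, had 0.21, 0.26 and 0.25, EIF3J-AS1/EIF3J, with a translation initiation factor, had -0.30, 0.36 and 0.47, and FBXO2/FBXO44, with F-box genes, had 11 light and 7 heavy fragments in untreated cells. RAD1/BRIX1, MED20/BYSL, HPS5/GTF2H1 and ZBTB4/POLR2A were chosen after their values were seen.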

How the data were processed

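MNase-digested mononucleosomal DNA of GM12878 cells had been enriched for promoters and sequenced. The authors aligned paired reads to hg19, kept unique alignments, counted the fragment centers within overlapping windows (60 bp wide, moved by 10 bp) and deposited these counts scaled to depth (rpm), both replicates pooled in each table. Bowtie2 2.2.2, SAMtools and bedtools are named in the submitters' processing notes. Values rise in whole steps (100% within 0.05 of a step), from which fragment numbers were recovered, so the depth of each table is known.

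From the deposited rpm, the log2 ratio light/heavy was taken after adding a pseudocount of 0.118 rpm, 0.1 of the mean value, which pulls windows with few fragments toward 0. Pooled tables allow no test over replicates and no p-values are given. Changes of pairs with at least 20 fragments per table have exact conditional 95% intervals. The untreated heavy table ends in a partial line, which was left out, and the 2 tables of 20 min were not used. On simulated fragments for the pair window at 60 min, 96.7% of the intervals of 516 pairs held the true change. These fragments were drawn independently, as the intervals assume, and at the same base rate for light and heavy tables. The simulation thus checks the calculation, and cannot show the effect of PCR copies or of spread between replicates.

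The members and lists were chosen with earlier results of these data known. Pairs named are those with both genes in 1 of the 18 lists met or on a list of textbook pairs, the 4 largest rises and falls at each time, and the 2 deepest, shallowest, most sensitive and most resistant among pairs with enough fragments, 57 pairs in all, of which most histone and zinc finger pairs are given as ranges and 1 pair is not reported here. Alternatives were the pseudocount, scaling, windows, filters, comparison set and call limits. Sequences are from GRCh37 and annotation from GENCODE. Python 3.11.15, numpy 2.4.6, scipy 1.17.1 and matplotlib 3.10.9 were used.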

Additional observations from a re-analysis of the deposited data

How the results depend on the processing

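No paired analysis was possible because each deposited table pools the replicates, and leaving out a replicate could not be run for the same reason. Of 258 values under alternatives, 139 lay within the 95% interval of the median as reported, 118 lay outside it and 1 turned. In place of an interval, counts were allowed 1.5 times and distances between flanking peaks a fixed number of bp. Thinning and the restriction to starts over 200 bp apart were chosen after seeing the data.

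The value that turned was the untreated difference in -1 sensitivity, which with tandem promoters in place of all other promoters was -0.071, with 0.28 at 40 min and 0.28 at 60 min and a difference in change of 0.26 at 60 min.

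In what follows, values are in the order untreated, 40 min and 60 min, and changes in the order 40 and 60 min. With a pseudocount of 0.5 of the mean, -1 sensitivity of members was 0.055, 0.16 and 0.18, its difference from other promoters 0.050, 0.13 and 0.16, its change 0.070 and 0.090, the difference in change 0.057 and 0.078, between-TSS sensitivity 0.091, 0.21 and 0.22, the pair window change 0.10 and 0.11, and +1 sensitivity at 40 min 0.076. With 0.02 of the mean these were 0.24, 0.71 and 0.79 for -1 sensitivity, 0.23, 0.62 and 0.73 for the difference, 0.29 and 0.32 for the change, 0.23 and 0.32 for the difference in change, and 0.38, 0.93 and 0.93 between the TSSs. With all tables thinned to equal depth, -1 sensitivity was 0 before HKST and 0.36 at 40 min, the difference before HKST was 0, and both the change and the difference in change were 0.0097 and 0.092, whereas the pair window change was 0.17 and 0.20. Members had a change of 0.12 at 40 min when centred on other promoters.

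Above the median signal, -1 sensitivity was 0.52 at 40 min and 0.56 at 60 min, the difference 0.52 and 0.57, the change 0.24 and 0.26, the difference in change at 60 min 0.26, +1 sensitivity 0.048, 0.21 and 0.22, between-TSS sensitivity 0.75 and 0.73 at 40 and 60 min, and NFR depth of pairs -2.77, -2.79 and -2.80. NFR depth was -2.11, -2.07 and -2.16 from summed signal and -2.33, -2.33 and -2.36 with the window from -150 to 0 bp. Ratios of summed signal gave -1 sensitivity of 0.32, 0.52 and 0.63, differences of 0.35, 0.52 and 0.63, a change of 0.31 and a difference in change of 0.27 at 60 min, and +1 sensitivity of 0.11, 0.26 and 0.30. The mean gave -1 sensitivity of 0.25 and 0.52 in untreated and 40 min cells, changes of 0.27 and 0.28, and +1 sensitivity of 0.014, 0.19 and 0.16.

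In the middle GC range, -1 sensitivity was 0.21, 0.54 and 0.56, the difference 0.30, 0.51 and 0.51, the change 0.25 and 0.26, the difference in change 0.063 and 0.13, and +1 sensitivity 0.19 and 0.15 at 40 and 60 min. The difference in change was thus under 0.5 of its reported 0.14 at 40 min. The window from -250 to -100 bp gave 0.40 for -1 sensitivity at 60 min, differences of 0.064, 0.29 and 0.28, and a change of 0.17 and difference in change of 0.16 at 60 min. Without LOC, LINC and antisense genes, -1 sensitivity was 0.20 in untreated cells and 0.56 at 60 min, and the difference 0.19 and 0.51. At 60 min, plus-strand promoters alone gave a change of 0.17, a difference in change of 0.17 and +1 sensitivity of 0.16, and minus-strand promoters 0.26, 0.25 and 0.042. Starts over 200 bp apart gave +1 sensitivity of -0.039, 0.042 and 0.

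At 1.5-fold, 51 pairs were higher and 17 lower at 40 min, and 60 and 9 at 60 min. With at least 10 fragments (561 pairs), 22 and 4 were past 2-fold at 40 min, and 27 and 2 at 60 min. The share of other promoters was not taken at these limits, so these counts cannot be set against a background. The number of heavy fragments, lowest at 40 min, limits what single pairs can show, and the cause of these dependences was not tested.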
